A study of Drosophila simulans and Drosophila kikkawai and Drosophila takahashii with 176 samples.

Results

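The 7 genes described here, Sxl, tra, tra2, dsx, fru, ix and her, make up the core of the somatic sex determination pathway of Drosophila melanogaster. They were picked by name, and all 7 were found by their FlyBase identifiers among the 17727 genes listed for both organs of this species. In the fruit fly, the dose of the X chromosome sets whether Sxl, an RNA-binding splicing regulator, is made as a working protein. In females Sxl directs the splicing of tra, and Tra together with its partner Tra2 directs the female splicing of dsx and fru, which encode transcription factors. In males the default splicing gives truncated Sxl and Tra and the male forms of Dsx and Fru. Each value below is 1 number per gene, so the sex-specific transcripts of a gene are summed and cannot be told apart.

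RNA came from accessory glands (AGs), the paired glands that make much of the seminal fluid protein, and from testes, each pooled from about 25 adult males of mixed stages. No treatment or engineered genotype is named for any library. The reference strain carries the markers y; cn bw sp, and the second, non-reference strain is ED10. Each organ had 2 libraries from each strain, so 4 AG and 4 testis libraries, which were sequenced in 12 runs. Expression is given in TPM, a measure of transcript abundance scaled for library and for gene length, so that levels of different genes within a library can be compared.

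The libraries matched their organ labels. The 10 testis germline markers summed to between 4386 and 10423 TPM in the testis and between 8.11 and 390 TPM in the AG, and all 10 were higher in the testis. The 6 AG main cell markers summed to between 32924 and 199591 TPM in the AG and between 47.3 and 2165 TPM in the testis, and all 6 were called higher in the AG. For Acp95EF that call came from the reference strain, since in ED10 it was at 0.0332 and 0.543 TPM in AG libraries but at 23.7 and 40.1 TPM in testis libraries. Libraries of the same organ and strain had Spearman correlations over all genes of 0.91 to 0.98. Across strains, testis libraries correlated at 0.91 to 0.94, but AG libraries only at 0.78 to 0.85. Correlations between organs depended on the strain of the AG library. They were 0.67 to 0.72 for reference-strain AG libraries and 0.42 to 0.48 for those of ED10. The total of the deposited TPM was not constant, ranging from 1070165 to 1959870 per library. The 10 highest genes held 22.3% to 43.1% of this total in AG libraries but 8.89% to 12.6% in testis libraries. The first reference-strain AG library stood apart, with 43.1% in 10 genes and the lowest AG value of 50.8% of 13120 protein-coding genes, 6 of the 7 sex determination genes among them. The second ED10 library of each organ was sequenced on another machine model (HiSeq 2500). In the AG it held the highest value of 6 of the 7 genes and of 36.1% of protein-coding genes. The second reference-strain AG library held that of 1 of the 7 genes and of 43.3% of protein-coding genes. In the testis the HiSeq 2500 library held the highest value of 2 of the 7 genes. Read counts were not used, so the depth behind a TPM value is unknown here.

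Sxl, the switch gene at the top of the pathway (FBgn0264270), lies on chromosome X from 7074550 to 7098053 on the minus strand of the BDGP6 assembly, with 25 annotated transcripts. In the AG it stood at 2.06 and 11.2 TPM in the reference strain and at 4.47 and 12.4 TPM in ED10. The testis values were 2.34 and 1.88 TPM in the reference strain and 3.51 and 3.36 TPM in ED10. The testis libraries were close to each other and 3 of the 4 AG libraries lay above all of them, but the first reference-strain AG library fell within the testis range. The AG mean of 7.53 ± 5.05 TPM and the testis mean of 2.77 ± 0.789 TPM (SD, n = 4 each) had a difference that was not called (log2 difference testis minus AG -0.96 ± 0.54 SE on the log2(TPM + 1) scale, adjusted p = 0.191, limma). Without the first reference-strain AG library the difference was -1.46 (adjusted p = 0.0345), without the second it was -0.46 (adjusted p = 0.375), and without the HiSeq 2500 libraries it was -0.63 (adjusted p = 0.534).

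The gene her, whose zinc finger protein contributes to the activation of Sxl, also acts further down the pathway (FBgn0001185, chromosome 2L, 16677185 to 16679691, plus strand). In the AG her measured 2.32 and 6.02 TPM in the reference strain and 6.21 and 6.94 TPM in ED10. The testis libraries gave 3.27 and 3.41 TPM in the reference strain and 5.98 and 5.20 TPM in ED10. The groups overlapped, and the log2 difference was -0.18 ± 0.28 SE with a 95% interval from -0.90 to 0.54 (adjusted p = 0.637, limma). Its sign turned when each library was rescaled to a total of 1000000 (0.08) and when the second reference-strain AG library was left out (0.09).

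tra is the direct splicing target of Sxl (FBgn0003741, chromosome 3L, 16590059 to 16591050, minus strand). It stood at 1.92 and 3.86 TPM in the AG of the reference strain and at 5.80 and 12.3 TPM in the AG of ED10. In the testis it stood at 7.23 and 7.84 TPM in the reference strain and at 10.6 and 11.1 TPM in ED10. In the reference strain both testis libraries lay above both AG libraries, while in ED10 the second AG library was the highest of all 8. The log2 difference of 0.75 ± 0.30 SE was not called (adjusted p = 0.0859, limma). It was called after rescaling each library to 1000000 (0.96, adjusted p = 0.0441) and without the second ED10 AG library (0.99, adjusted p = 0.0378). Without the reference-strain AG libraries it was 0.08 (adjusted p = 0.893, limma), in a fit of ED10 AG libraries against testis libraries of both strains. In ED10 alone the difference was 0.32. The end of tra overlaps the gene l(3)73Ah on the opposite strand by 74 bp, and l(3)73Ah was listed at 14.8 to 48.6 TPM in AG libraries and 33.5 to 41.0 TPM in testis libraries. The libraries were directional, but whether strand was used in the estimation is not given in the sources used here, so reads from that stretch cannot be assigned.

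tra2, which encodes an RNA-binding splicing factor, is known to act in male germ cells as well as in the soma (FBgn0003742, chromosome 2R, 14602004 to 14604337, minus strand). In the AG tra2 measured 10.3 and 14.3 TPM in the reference strain and 15.7 and 22.3 TPM in ED10. In the testis it measured 72.1 and 50.1 TPM in the reference strain and 67.9 and 67.7 TPM in ED10. Every testis library was above every AG library. The mean was 4.12 times higher in the testis (64.4 ± 9.78 TPM) than in the AG (15.7 ± 5.02 TPM; SD, n = 4 each), with a log2 difference of 2.01 ± 0.20 SE (adjusted p = 0.000526, limma). This call held in each strain alone and under all 20 alternatives, whose values ranged from 0.51 to 2.32.

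dsx, the transcription factor at the end of the somatic branch, is known to be needed for the growth of the male genital ducts and glands (FBgn0000504, chromosome 3R, 7924323 to 7967408, minus strand). It stood at 1.96 and 5.08 TPM in the AG of the reference strain and at 3.40 and 5.50 TPM in the AG of ED10. Testis libraries gave 0.895 and 0.670 TPM in the reference strain and 3.20 and 1.94 TPM in ED10. Within each strain both AG libraries were above both testis libraries, and across strains only the first reference-strain AG library overlapped the testis range. The log2 difference of -0.93 ± 0.31 SE lay just outside the threshold (adjusted p = 0.0521, limma). It was called with a pseudocount of 0.1 (-1.34, adjusted p = 0.0462), and when only genes with a mean of at least 1 TPM in an organ (adjusted p = 0.0248) or only protein-coding genes (adjusted p = 0.0411) were tested. Without the first reference-strain AG library it was -1.19 (adjusted p = 0.0183), and without the second it was -0.67 (adjusted p = 0.0849). It was also smaller after rescaling to 1000000 (-0.63, adjusted p = 0.126) and without the HiSeq 2500 libraries (-0.66, adjusted p = 0.258). dsx overlaps lds on the opposite strand by 169 bp, and lds was listed at 0.584 to 2.28 TPM in AG libraries and 22.3 to 36.7 TPM in testis libraries.

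ix encodes a protein that acts together with the female form of Dsx (FBgn0001276, chromosome 2R, 11359437 to 11360163, minus strand). In the AG ix measured 5.54 and 10.02 TPM in the reference strain and 9.09 and 10.9 TPM in ED10. In the testis it measured 1.88 and 2.07 TPM in the reference strain and 2.51 and 4.83 TPM in ED10. Every AG library was above every testis library, and no other annotated gene overlaps ix. The mean was 3.14 times higher in the AG (8.88 ± 2.35 TPM) than in the testis (2.83 ± 1.36 TPM; SD, n = 4 each), with a log2 difference of -1.39 ± 0.28 SE (adjusted p = 0.00847, limma). With 1 strain only, which leaves 2 libraries per organ, the difference was -1.51 in the reference strain (adjusted p = 0.0585) and -1.27 in ED10 (adjusted p = 0.0882).

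fru, the transcription factor of the branch that shapes male courtship neurons, was the lowest of the 7 genes by mean in both organs (FBgn0004652, chromosome 3R, 18414273 to 18545586, minus strand). It stood at 0.0736 and 0.209 TPM in the AG of the reference strain and at 0.111 and 0.0633 TPM in the AG of ED10. The testis levels were 1.49 and 1.24 TPM in the reference strain and 1.15 and 1.25 TPM in ED10. Every testis library was above every AG library, and the testis mean of 1.28 ± 0.149 TPM was 11.2 times the AG mean of 0.114 ± 0.0664 TPM (SD, n = 4 each). The AG values are near 0, so the size of this ratio is imprecise. In the paper, the TPM at which a gene was equally likely on or off varied by species. The AG values of fru lie below that range for the AG, and its testis values lie within that for the testis. The log2 difference was 1.03 ± 0.07 SE (adjusted p = 8.0e-05, limma), which the pseudocount of 1 compresses, since it was 2.73 with a pseudocount of 0.1. Of 5 neuron markers, 3 (nSyb, brp and Rdl) were called higher in the testis, where 44.4% of all genes were, and Syt1 was not called. elav, a defining neuronal gene, was called higher in the AG, where 12.1% of all genes were, at 0.590 to 3.25 TPM against 0.329 to 0.786 TPM. The part of neurons in the fru values was not tested.

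**Figure D1:**
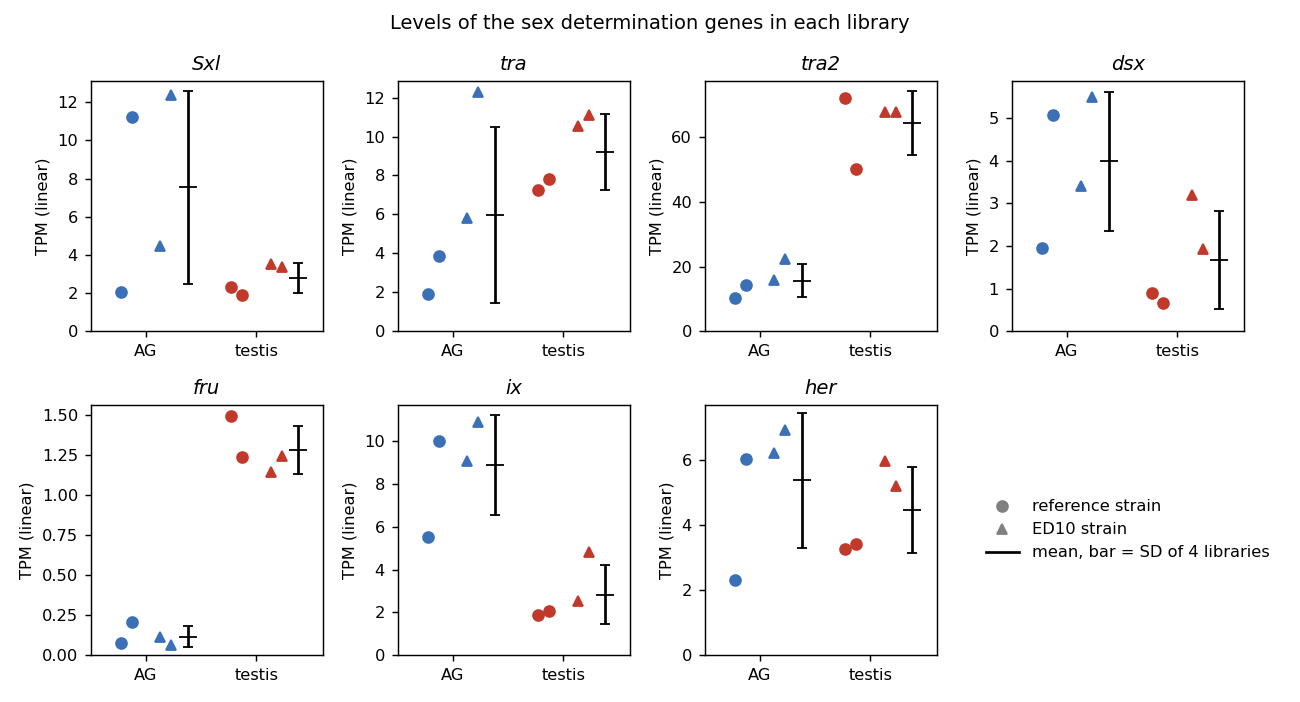
Levels of the 7 genes in TPM on linear axes that differ between panels, with 1 point per library (AG in blue, testis in red, circles for the reference strain, triangles for ED10). Black bars give the mean ± SD of 4 libraries. The organs do not overlap for tra2 and fru, which were higher in the testis, and for ix, which was higher in the AG.

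In all, 2 of the 7 genes, tra2 and fru, were called higher in the testis, where 44.4% of all 17727 genes were, and 1, ix, was called higher in the AG, where 12.1% of all genes were. The same 3 genes were those without overlap between organs. Over all genes, every testis library was above every AG library for 40.0%, and the reverse held for 9.69%. These shares do not set the 7 genes apart from the rest of the genome. An exact permutation test of 4 against 4 libraries, whose smallest possible p is 0.0286 two-sided, gave that p for tra2, fru and ix, and 0.0571 for dsx, 0.143 for Sxl, 0.171 for tra and 0.686 for her. Without the HiSeq 2500 libraries tra2, fru and ix were again the genes called. In these pools of whole organs, fewer cells of a type that makes a transcript and less of the transcript per cell cannot be told apart.

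The order of the genes differed between the organs. In the AG the order by mean was tra2, ix, Sxl, tra, her, dsx and fru. tra2 was above ix, her above dsx and dsx above fru in 4 of 4 AG libraries, while ix was above Sxl in 2, Sxl above tra in 3 and tra above her in 1 of 4, so the order from ix to her was not resolved. In the testis the order by mean was tra2, tra, her, ix, Sxl, dsx and fru. Neighbours in that order kept it in 4 of 4 testis libraries, except ix and Sxl and also dsx and fru, which kept it in 2 of 4.

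The position of a gene among the protein-coding genes of its own library does not depend on the scaling of that library. By this percentile, Sxl, dsx, ix and her ranked higher in every AG library than in any testis library, 4 of 7 genes, as did 33.5% of all 13764 protein-coding genes. ix ranked between the 63.1 and 66.7 percentile in AG libraries but between 29.8 and 38.2 in testis libraries. dsx ranked 46.5 to 56.0 across AG libraries and 20.9 to 34.0 across testis libraries, and Sxl 47.5 to 68.2 across AG libraries and 29.8 to 35.0 across testis libraries. her, with a log2 difference near 0, ranked 49.3 to 61.0 across AG libraries and 35.7 to 41.9 across testis libraries. None of the 7 genes ranked higher in every testis library, where 25.1% of the protein-coding genes did. tra2 ranked high in both organs, at 70.5 to 78.0 in AG libraries and 76.9 to 80.6 in testis libraries, and fru ranked low in both, at 18.2 to 28.2 in AG libraries and 24.2 to 27.6 in testis libraries. Thus fru was 11.2 times higher in TPM in the testis, yet its rank overlapped between organs.

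**Figure D2:**
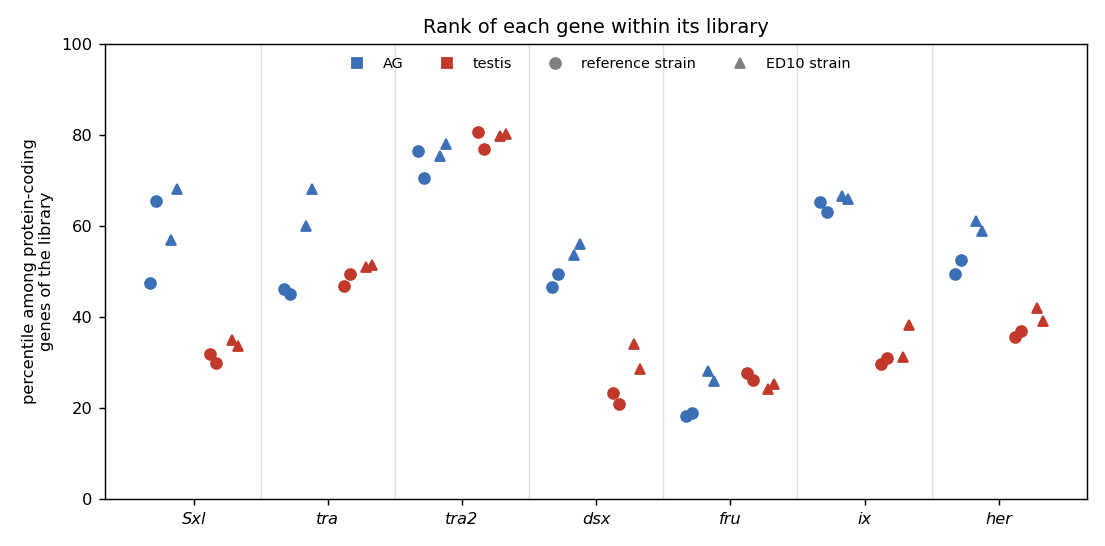
Percentile of each gene among the protein-coding genes of its library, with 1 point per library (AG in blue, testis in red, circles for the reference strain, triangles for ED10). Sxl, dsx, ix and her ranked higher in all 4 AG libraries, while tra, tra2 and fru overlapped between organs.

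The scaling of the libraries moved most of the differences together. Rescaling each library to 1000000 raised all of them but that of fru, while median-ratio scaling and quantile normalization lowered all 7. The median log2 difference over all genes was 0.39 as deposited, 0.50 after rescaling to 1000000, 0.23 with median-ratio scaling and -0.11 with quantile normalization. Relative to the median of 0.39 over all genes, the differences of her (-0.18), Sxl, dsx and ix lay below, and those of tra, tra2 and fru above. That median includes genes near 0 TPM. Among genes with a mean of at least 1 TPM in 1 organ the median was 0.997. Against it tra (0.75) lay below, fru (1.03) lay close to it, and only tra2 (2.01) lay well above. With quantile normalization, which makes the distributions of all libraries equal, tra2 remained called higher in the testis (0.51, adjusted p = 0.0450, limma), fru was not called (0.18, adjusted p = 0.0807), and tra turned to -0.46 (adjusted p = 0.0976). Sxl (-2.23), dsx (-2.004), ix (-2.67) and her (-1.48) were all called higher in the AG under that setting.

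**Figure D3:**
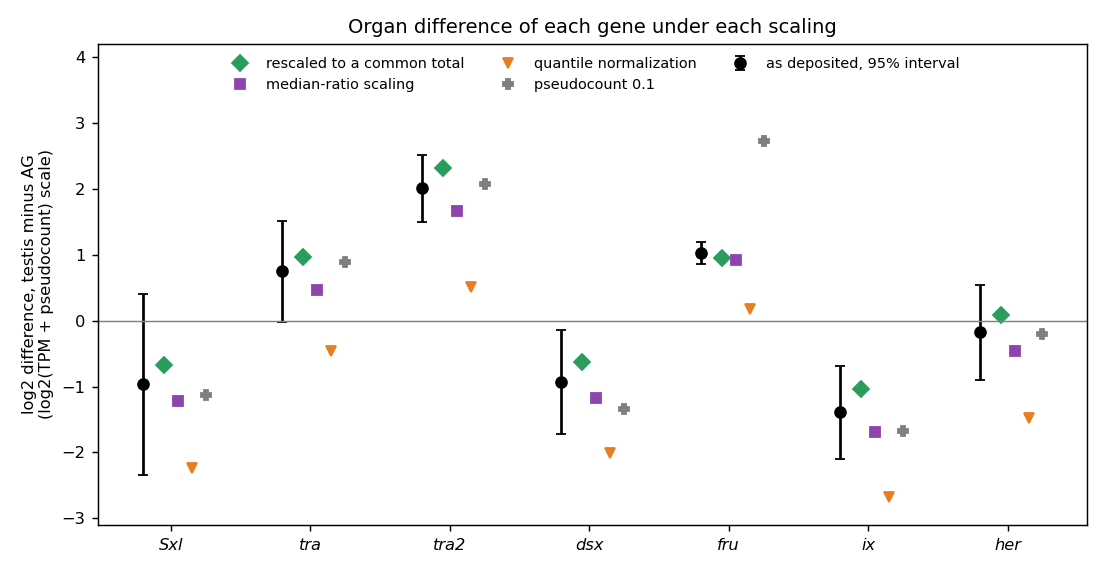
Log2 difference of each gene between testis and AG. Black circles with 95% intervals are the values as deposited with a pseudocount of 1, and coloured symbols are the values under 3 other scalings and with a pseudocount of 0.1. tra and her change sign between scalings, and the other 5 genes keep theirs.

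Ratios of 2 genes within a library are free of scaling. The 6 pairs were chosen after the levels had been seen, so their ratios are a description, with no test. How often other pairs of genes lack overlap between the organs was not computed. The ratio of tra2 to dsx was 5.25, 2.82, 4.62 and 4.06 in the AG libraries and 80.5, 74.7, 21.2 and 34.9 in the testis libraries, in the order of 2 reference and 2 ED10 libraries. The organs did not overlap, and the log2 ratio averaged 2.03 ± 0.39 in the AG and 5.52 ± 0.92 in the testis (SD, n = 4 each). The ratio of fru to dsx was 0.0115 to 0.0412 across AG libraries and 0.358 to 1.85 across testis libraries. The ratio of tra to Sxl was 0.343 to 1.298 across AG libraries and 3.01 to 4.16 across testis libraries, a log2 difference of 2.07. In each testis library tra was thus above Sxl, while in the AG it was above Sxl in 1 of 4. The ratio of tra2 to tra was 1.81 to 5.35 across AG libraries and 6.08 to 9.96 across testis libraries, and that of her to Sxl 0.536 to 1.39 across AG libraries and 1.40 to 1.81 across testis libraries. The ratio of ix to dsx, partners in the female, was 1.97 to 2.83 across AG libraries and 0.785 to 3.09 across testis libraries, and it overlapped between organs (log2 difference -0.30, n = 4 each).

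**Figure D4:**
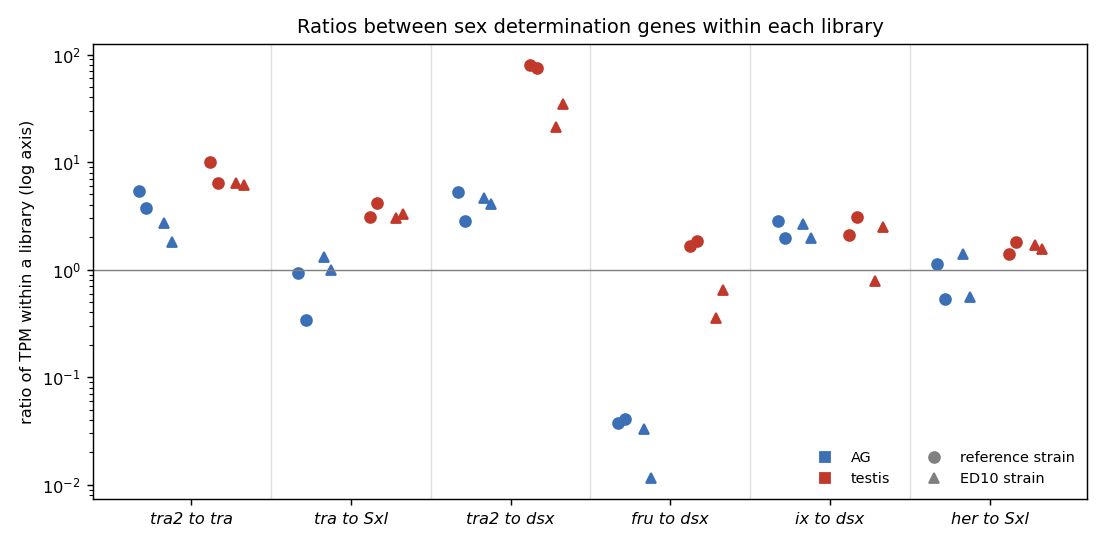
Ratio of the TPM of 2 genes within a library, on a log axis, with 1 point per library (AG in blue, testis in red, circles for the reference strain, triangles for ED10). The organs do not overlap for any ratio but that of ix to dsx, though for her to Sxl they nearly touch (1.390 against 1.400). The pairs were chosen after the levels had been seen, and the share of all gene pairs without overlap was not computed.

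Transcripts that mark the other organ were listed at a low level, higher in the libraries of the reference strain. The median testis germline marker in the AG stood at 0.745% and 3.00% of its testis level in the reference-strain libraries and at 0.139% and 0.145% in the ED10 libraries. The same shares of the testis level of tra2 equal between 0.441% and 12.8% of the level of tra2 in an AG library, and for fru between 1.49% and 19.7%. For tra they equal at most 5.87%, and for Sxl, dsx, ix and her at most 1.67%. In the testis the median AG main cell marker stood at 0.00965% to 1.35% of its AG level, and those shares of the AG level equal at most 7.11% of the testis level of dsx, 5.08% of that of ix and 4.78% of that of Sxl. The source of these marker transcripts was not tested. Without the reference-strain AG libraries, a setting added once the values were known, the 3 calls were tra2 (1.71, adjusted p = 0.00186, limma), fru (1.07, adjusted p = 0.000355) and ix (-1.58, adjusted p = 0.0183). That fit set ED10 AG libraries against testis libraries of both strains without modelling strain, so organ and strain are mixed in it. Muscle markers also differed, with sums of 422 to 1004 TPM in AG libraries and 147.8 to 590 TPM in testis libraries. Of these, 3 of 5 were called higher in the AG, where 12.1% of all genes were. Their part in the levels of the 7 genes was not tested.

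The strains were compared within each organ. In the AG, 0 of the 7 genes were called different between ED10 and the reference strain (limma, adjusted p of 0.148 or above), where 9.61% of all genes were, and 1, tra, had an unadjusted p under 0.05, as had 3914 of all 17727 genes. tra was higher in ED10, at 9.06 TPM against 2.89 TPM (means of 2 libraries each), a log2 difference of 1.34 ± 0.43 SE with a 95% interval from 0.26 to 2.42. Both ED10 libraries were above both reference-strain libraries, but the difference of tra failed the correction over all genes. The same order of libraries held for tra2 and her in the AG, and for Sxl, tra, dsx, ix and her in the testis. Its share over all genes was not computed. In the testis 0 of 7 were called (limma, adjusted p of 0.420 or above), where 4.19% of all genes were, and 0 had an unadjusted p under 0.05. The largest testis difference among the 7 was that of dsx, at 2.57 TPM in ED10 and 0.783 TPM in the reference strain (log2 difference 0.98 ± 0.44 SE, 95% interval -0.14 to 2.11, adjusted p = 0.420). By the study's supplementary sample table, the strains were dissected by different people, so strain and dissector cannot be told apart here. The HiSeq 2500 was used for ED10 libraries only, so strain and machine model also overlap in part.

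The interaction of organ and strain, which asks whether the organ difference changed with strain, was called for 0 of the 7 genes (limma, lowest adjusted p = 0.566, 0 with an unadjusted p under 0.05), where 8.08% of all genes passed. The largest interaction was that of tra, whose testis minus AG difference was 1.18 in the reference strain and 0.32 in ED10, a change of -0.87 ± 0.60 SE. With 2 libraries per strain and organ the intervals were wide, and for Sxl the interval of the interaction ran from -2.71 to 2.78.

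The wider pathway was described by 6 lists of regulators and targets, with 52 genes in all. Of these, 22 were called higher in the testis (44.4% of all genes were) and 6 higher in the AG (12.1% of all genes were), and 24 were not called. Both counts are near the shares over all genes. The median log2 difference of the 52 genes was 0.27, against 0.39 for all genes.

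Among the 8 genes of X-chromosome counting, which set the early activity of Sxl in the embryo, 3 were higher in the testis and 1 in the AG (median log2 difference 0.57). upd1, a ligand of the JAK/STAT pathway that the hub cells of the testis also make, was at 9.03 TPM in the testis against 0.0973 TPM in the AG (log2 difference 3.17, adjusted p = 8.1e-05, limma). dpn, a repressor of Sxl, was at 2.21 TPM in the testis against 0.105 TPM in the AG (1.5, adjusted p = 0.000258). emc, an inhibitor of helix-loop-helix factors, was higher in the AG, at 32.1 TPM against 8.96 TPM (-1.55, adjusted p = 0.0375).

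Of the 11 splicing cofactors of Sxl and m6A factors, 3 were higher in the testis and 1 in the AG (median -0.17). Mettl3, the catalytic subunit of the m6A writer, was at 28.4 TPM in the testis against 4.49 TPM in the AG (2.49, adjusted p = 0.00028, limma), while its partner Mettl14, at 7.27 TPM against 5.18 TPM, was not called. Ythdc1, the nuclear reader of m6A, was higher in the AG, at 22.9 TPM against 5.68 TPM (-1.72, adjusted p = 0.00796). U2af38, the small subunit of the splice site factor that Sxl competes with, was at 48.6 TPM in the testis against 15.6 TPM in the AG (1.61, adjusted p = 0.00286).

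Of 7 splicing partners of tra and tra2, 2 were higher in the testis and 1 in the AG (median 0.21). x16, an SR protein of the splicing machinery, was at 16.1 TPM in the testis against 5.30 TPM in the AG (1.5, adjusted p = 0.00282).

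Among 9 regulators of germline sex, 7 were higher in the testis, where 44.4% of all genes were, and 2 were not called. The median of the list was 1.35, against 0.39 for all genes and 0.997 among genes with a mean of at least 1 TPM in 1 organ. The list was picked for the germline, which is in the testis, so its shift is no separate finding. bgcn, a partner of bam in germ cell differentiation, was at 40.2 TPM in the testis against 0.386 TPM in the AG (4.94, adjusted p = 2.5e-05, limma). Phf7, a chromatin reader that acts in the male germline, was at 15.9 TPM in the testis against 0.237 TPM in the AG (3.76, adjusted p = 0.000116), and bam at 4.69 TPM against 0.0479 TPM (2.42, adjusted p = 0.000124). bam is also one of the testis germline markers used above.

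Of 5 genes that are targets of Sxl or act with it, 2 were higher in the testis and 1, Unr, in the AG (median 0.25). nanos, a translational regulator of germ cells that is also in the list of germline regulators, was at 4.29 TPM in the testis against 0.0271 TPM in the AG (2.35, adjusted p = 3.1e-05, limma). N, the Notch receptor, was at 1.33 TPM in the testis against 0.176 TPM in the AG (0.98, adjusted p = 0.00156). Unr, the RNA-binding partner of Sxl on msl-2 RNA, was higher in the AG, at 40.5 TPM against 14.9 TPM (-1.40, adjusted p = 0.0247). msl-2 itself, the dosage compensation gene that Sxl represses in females, measured 5.62 ± 1.303 TPM in the testis against 7.20 ± 3.41 TPM in the AG (SD, n = 4 each) and was not called (adjusted p = 0.668).

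Of 13 effectors and partners of dsx and fru, 6 were higher in the testis and 2 in the AG (median 0.09). Among these 6, Fad2, dati, Lgr3 and bab1 were near the floor, with testis means of 0.0485, 0.312, 0.461 and 0.854 TPM. chinmo, which keeps the male identity of somatic stem cells in the testis, was at 12.2 TPM in the testis against 0.0829 TPM in the AG (3.59, adjusted p = 2.6e-05, limma). retn, a transcription factor of neurons that act in courtship, was higher in the AG, at 29.4 TPM against 6.51 TPM (-2.06, adjusted p = 0.0108). bab2, whose expression dsx controls in the abdomen, was at 1.95 TPM in the testis against 0.405 TPM in the AG (1.08, adjusted p = 0.000583). Yp3, a yolk protein gene and classic target of dsx, measured 6.94 ± 2.67 TPM in the testis against 4.72 ± 8.72 TPM in the AG (SD, n = 4 each), and its difference of 1.54 was not called (adjusted p = 0.199). The AG mean rests on the second reference-strain library at 17.8 TPM, as the other AG libraries were at 0.0778 to 0.636 TPM.

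**Figure D5:**
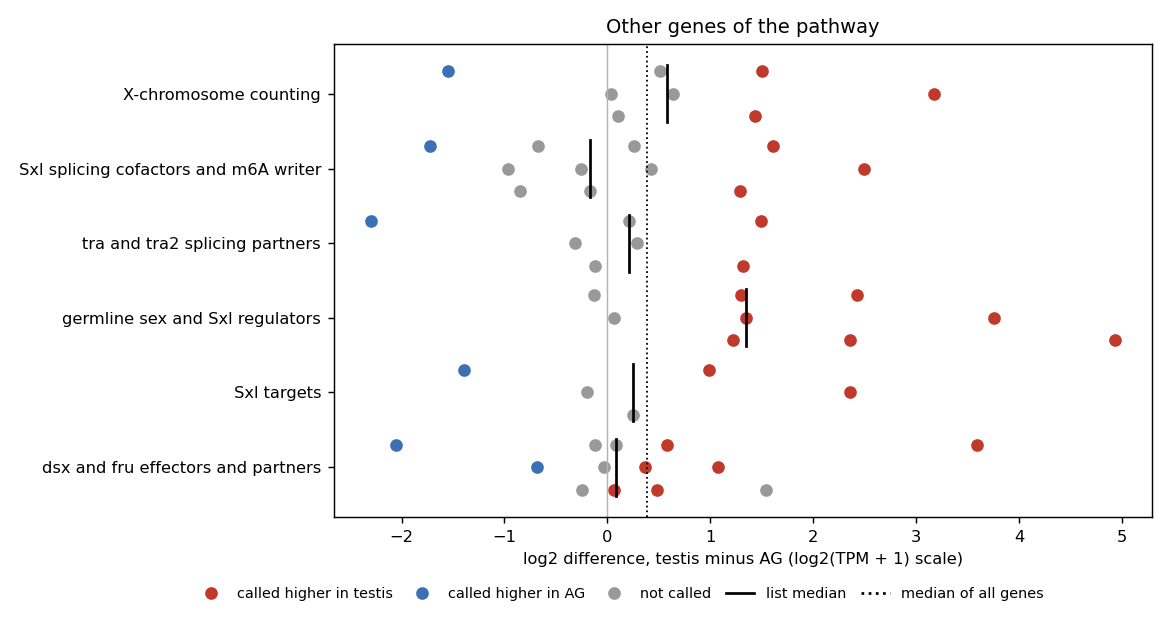
Log2 difference between testis and AG of the genes in the 6 pathway lists, coloured by call (red for higher in testis, blue for higher in AG, grey for not called). Black bars mark the median of each list and the dotted line marks the median of all genes, 0.39. The list of germline regulators, with a median of 1.35, lies to the right of that line. Among genes with a mean of at least 1 TPM in 1 organ the median was 0.997.

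The protein-coding genes with levels most like those of each member were found by the Euclidean distance of log2(TPM + 1) over the 8 libraries. For fru they were Shal (distance 0.26) and loaf (0.29), and for her CG31368 (0.37) and CG8777 (0.48). For tra they were Abp1 (0.52) and Socs44A (0.65), for tra2 Cox10 (0.62) and CG5516 (0.63), and for ix CG3626 (0.64) and CG4558 (0.71). dsx was nearest to HP5 (0.73) and Aasdh (0.84), and Sxl to CG31999 (0.84) and CG1674 (0.93). Each of these was the closest of 13764 genes, and no member was among the nearest pair of another.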

How the data were processed

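Poly(A) RNA of AGs and testes was sequenced from D. melanogaster males. The authors trimmed reads (Trimmomatic, per the labels), aligned them to genome release 6 with STAR 2.5.3 and estimated transcript abundance with StringTie. Its version is 1.3.4 in the submitters' processing notes, while the paper's methods name another version. The deposited values are the authors' TPM per gene and library, treated here as a signal (coverage-like and not negative), since their sums exceed 1000000. How transcripts were summed to genes is not given in the sources used here. Runs of a library form 1 column, and 0 columns were left out. The 20 tables of the other species were not used.

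Both tables were joined by gene identifier (17727 genes, 17502 placed by the BDGP6 annotation, 13764 protein-coding). log2(TPM + 1) was fitted with limma 3.58.1 (R 4.3.3) with an intensity trend and 4 means (organ by strain), Benjamini-Hochberg adjustment over all genes and a threshold of 0.05, without a filter. The script was tested on simulated data with 200 changed genes. These were drawn from highly expressed genes and given large changes, so that test does not bear on most of the 7 members. What the totals per library are relative to is not given in the sources used here. The pools are separate libraries, and p-values measure the spread between them.

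The members and lists were chosen with earlier results of these data known. The text names all 7 members, from each list the 3 called genes of largest difference and any uncalled gene beyond 1.5 on the log2 scale, and the 2 nearest genes per member. msl-2, Mettl14 and some markers were added after their values were seen. Some genes of the partner list that the rule names are not reported here. SRPK of the partner list and Peb of the duct markers were not matched. Alternatives were another pseudocount, filters, scalings and spread models, single strains, libraries left out, and a fit without the HiSeq 2500 libraries. Python 3.11.15, numpy 2.4.6, pandas 2.3.3 and matplotlib 3.10.9 were used.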

Additional observations from a re-analysis of the deposited data

Results flagged for a closer look

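Among 26 groups of 4 libraries (14 of single genes and 12 of ratios), 1 held a library far from the others. The ratio of tra2 to tra in the testis was 9.96 in the first reference-strain library and 6.38, 6.43 and 6.08 in the other libraries. Chance flags about 1 in 20 such groups.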

How the results depend on the processing

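Of the 7 organ differences, that of tra2 kept its call under all 20 alternatives, that of fru under 19 and that of ix under 18. The count of members called was 3. It was 5 with median-ratio scaling (Sxl and dsx added) and with quantile normalization (Sxl, dsx and her added, fru lost), and 3 to 5 with 1 library left out, where 5 belongs to the fit without the first reference-strain AG library (Sxl and dsx added). Members higher in the testis fell from 2 to 1 with quantile normalization. Members higher in the AG rose from 1 to 2 with a pseudocount of 0.1, with the filter of 1 TPM and with protein-coding genes only, to 3 with median-ratio scaling and to 4 with quantile normalization, and were 0 in each strain alone and 1 to 3 with 1 library left out. All genes called higher in the testis (7872) fell to 5097 and those higher in the AG (2143) rose to 6232 with quantile normalization, and the latter were 1388 in the reference strain and 1383 in ED10 alone. Pathway genes higher in the testis (22) fell to 8 and those higher in the AG (6) rose to 26 with quantile normalization, and the latter were 11 with median-ratio scaling, 3 in the reference strain alone and 4 to 10 with 1 library left out, where 10 belongs to the fit without the first reference-strain AG library. Members that differed between strains in the AG (0) were 2 with quantile normalization (tra and fru) and 1 (her) without the second reference-strain AG library. In the AG 6 of 7 members lay above 0 for ED10 minus reference as deposited and 2 of 7 with median-ratio scaling. Signs turned for tra with quantile normalization (-0.46), for her after rescaling to 1000000 (0.084) and without the second reference-strain AG library (with 1 library left out, her ranged from -0.449 to 0.0917), and for the log2 ratio of ix to dsx without the first ED10 testis library (-0.540 to 0.119). The cause was not tested. No paired analysis was run, since the labels give no replicate number that AG and testis libraries share. The second ED10 libraries of both organs do carry the same run codes, and this was not modelled. Precision is limited by 4 libraries per organ and unknown depth at low TPM.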
